A study of Mus musculus with 6 samples.

Results

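Growth arrest after DNA damage is carried by more than 1 target of p53. Beside Cdkn1a, which encodes the CDK inhibitor p21, 10 genes were taken as the other growth arrest genes commonly tied to p53: Btg1, Btg2, Gadd45a, Gadd45b, Gadd45g, Plk2, Plk3, Sfn, Gtse1 and Rprm. They were chosen by name, 10 of 37310 annotated mouse genes, and each was examined from 10 kb before to 10 kb after its gene body (mm9, GENCODE vM1). The measurement was p53 ChIP-seq, in which DNA fragments bound by p53 are recovered with an antibody and sequenced, and regions in which they accumulate are called as peaks. Peak lists came from splenic B cells (selected with B220 beads) and non-B cells (the remaining spleen cells) of C57/Bl6 mice that were Trp53+/+ and 8 weeks old, either not irradiated (mock) or taken 4 h after the whole body had received 7 Gy (IR). A list from total spleen of irradiated Trp53-/- mice, of the same strain and not sorted into compartments, served as the control for the antibody (the labels give no age for these mice). Chromatin of 10 animals was pooled for each ChIP and each of these groups had 1 library, so there is no spread between animals or replicates to judge a difference by. No test is therefore given, and counts of genes are set beside the share of all annotated genes that met the same rule.

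p53 is kept low in resting cells and accumulates after DNA damage, when it binds response elements made of a pair of consensus decamers and raises transcription of nearby genes. The 10 genes act on the cell cycle in different ways. Btg1 and Btg2 are anti-proliferative adaptors of the mRNA deadenylation machinery. The GADD45 proteins are small stress-induced proteins that bind the Cdk1-cyclin B complex and PCNA. Plk2 and Plk3 are Polo-like kinases of the stress response, Sfn encodes 14-3-3 sigma, which holds Cdk1-cyclin B in the cytoplasm, and Rprm encodes Reprimo, which is linked to arrest in G2. Gtse1 encodes a microtubule-associated protein of S and G2 phase that restrains p53. The study reports that these spleen cells were mostly quiescent and that irradiation left their cell cycle distribution unchanged. It also reports that p53 at a promoter did not by itself predict regulation of the gene. The peaks therefore show binding, and neither expression nor arrest was examined here.

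The elements that lay under the peaks of these genes are shown first, since they differ from gene to gene in position and in match to the consensus. Unsplit elements (both decamers adjacent, at most 3 mismatches over 20 bases, with the C at position 4 and the G at position 7 of each decamer kept) were located in the reference genome. Of 17 such elements in the 10 windows, 5 overlapped a peak and 12 overlapped none. The share of all such elements of the genome that overlap a peak is not given, so these counts describe the windows only. The elements are written 5′ to 3′ on the strand of the gene, with the 20-base element in capitals and its surroundings in lower case. The elements of Gtse1 and Btg1 lie in untranslated regions and are shown alone.
Gtse1, 1 mismatch, 5′ UTR, chr15:85690375-85690394, plus strand: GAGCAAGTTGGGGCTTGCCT
Btg1, 2 mismatches, 3′ UTR, chr10:96084173-96084192, plus strand: AAACAAGCCTTGACATGCTA
Plk2, 2 mismatches, upstream, chr13:111183070-111183129, plus strand: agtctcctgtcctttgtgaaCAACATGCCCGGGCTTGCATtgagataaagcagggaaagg
Plk2, 2 mismatches, nearer to the start, chr13:111184582-111184641, plus strand: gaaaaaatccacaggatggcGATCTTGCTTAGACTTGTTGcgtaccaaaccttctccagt
Sfn, 3 mismatches, beyond the 3′ end, chr4:133155530-133155589, minus strand: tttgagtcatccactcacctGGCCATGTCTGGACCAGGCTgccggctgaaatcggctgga
For contrast, the best-matching element among the 12 outside any peak was 5537 bp upstream of the Gadd45a start, in an intron of the overlapping gene E230016M11Rik. It had 2 mismatches, the same number as the Btg1 element and both Plk2 elements, and no list held a peak over it.
Gadd45a, not under a peak, chr6:66992959-66993018, minus strand: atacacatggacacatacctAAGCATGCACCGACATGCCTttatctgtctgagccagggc
Btg2 had no unsplit element in its window. The stretch covered by its mock peaks, 202 to 342 bp upstream of the start, held 1 decamer without a mismatch, shown in capitals.
Btg2, promoter, chr1:135975899-135976039, minus strand: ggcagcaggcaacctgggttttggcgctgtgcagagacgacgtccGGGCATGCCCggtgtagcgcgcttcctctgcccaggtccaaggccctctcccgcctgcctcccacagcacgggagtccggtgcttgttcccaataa

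After irradiation 9 of the 10 genes had a peak in B cells and the same 9 in non-B cells, all but Rprm. The share of all annotated genes with a peak in the same kind of window was 41.2% in irradiated B cells and 39.8% in irradiated non-B cells. It was 53.4% and 51.8% among protein-coding genes, and 43.4% and 42.4% among protein-coding genes no longer than Gtse1, the longest of the 10. In the mock lists Btg1 and Btg2 had a peak in B cells, where 3.51% of all genes did, and Btg2 had one in non-B cells, where 1.74% did. No member had a peak in the Trp53-/- list, in which 0.0938% of all genes did. That list held 83 peaks in all, against 24507 in irradiated B cells and 21400 in irradiated non-B cells.

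In all, 28 peaks of irradiated B cells and 23 of irradiated non-B cells lay in the 10 windows, and the start of the member itself was the nearest protein-coding start for 23 and 19 of them. These peaks differed widely in strength. Each peak carries a value that was taken as −log10 of its p-value from the authors' peak caller. Because the value is not normalised between libraries, a peak is placed here by its rank in its own list and by its percentile, the share of peaks in that list with a lower value. The highest peak of each gene was set against the top 5% and top 20% of its list, cut-offs chosen after seeing the data. Btg1, Btg2, Plk2 and Gtse1 were in the top 5% of the list in both compartments. Those are 4 of the 10 genes, beside 3.11% of all genes in irradiated B cells and 2.73% in irradiated non-B cells. Among protein-coding genes the shares were 4.14% and 3.61%. In the top 20% of the list there were 5 of the 10 in each compartment, beside 12.2% of all genes in irradiated B cells and 12.2% in irradiated non-B cells. Among protein-coding genes these shares were 16.1% and 16.3%. The additional member was Gadd45a in B cells. In non-B cells it was Plk3, through a peak that lay nearer to the start of a neighbouring gene, Btbd19. At the lower end Gadd45g was at percentile 33.7 in B cells, and at 12.1 in non-B cells. Taken one by one the member peaks were not high, with a median percentile of 51.8 in irradiated B cells and 53.5 in irradiated non-B cells, and their median width was 471.5 and 441 bp, against 340 and 315 bp over the whole lists.

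**Figure D1:**
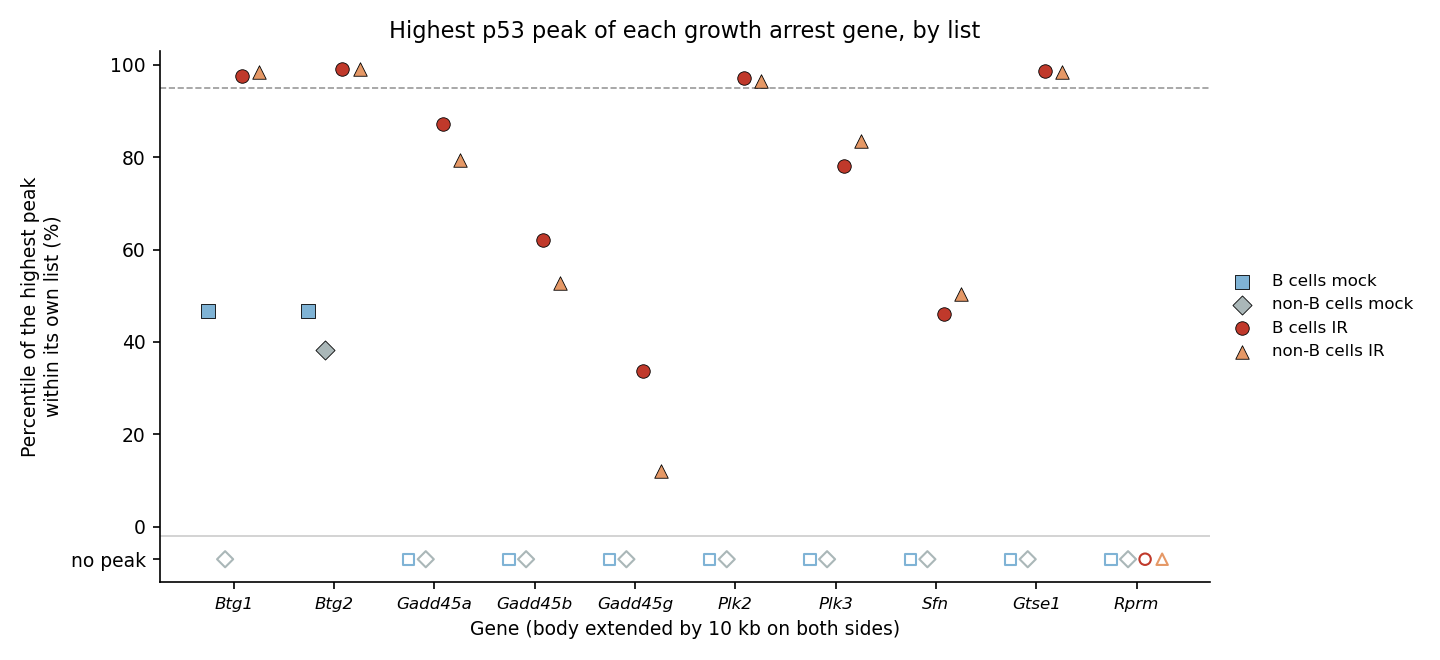
Percentile of the highest peak of each of the 10 genes within its own list (vertical axis, %), by gene (horizontal axis). Filled symbols are the 4 wild-type lists, 1 library each, open symbols in the lowest row are genes without a peak in that list, and the dashed line marks the top 5%. Btg1, Btg2, Plk2 and Gtse1 are above the line after irradiation in both compartments, only Btg1 and Btg2 have mock peaks, and Rprm has no peak.

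**Figure D2:**
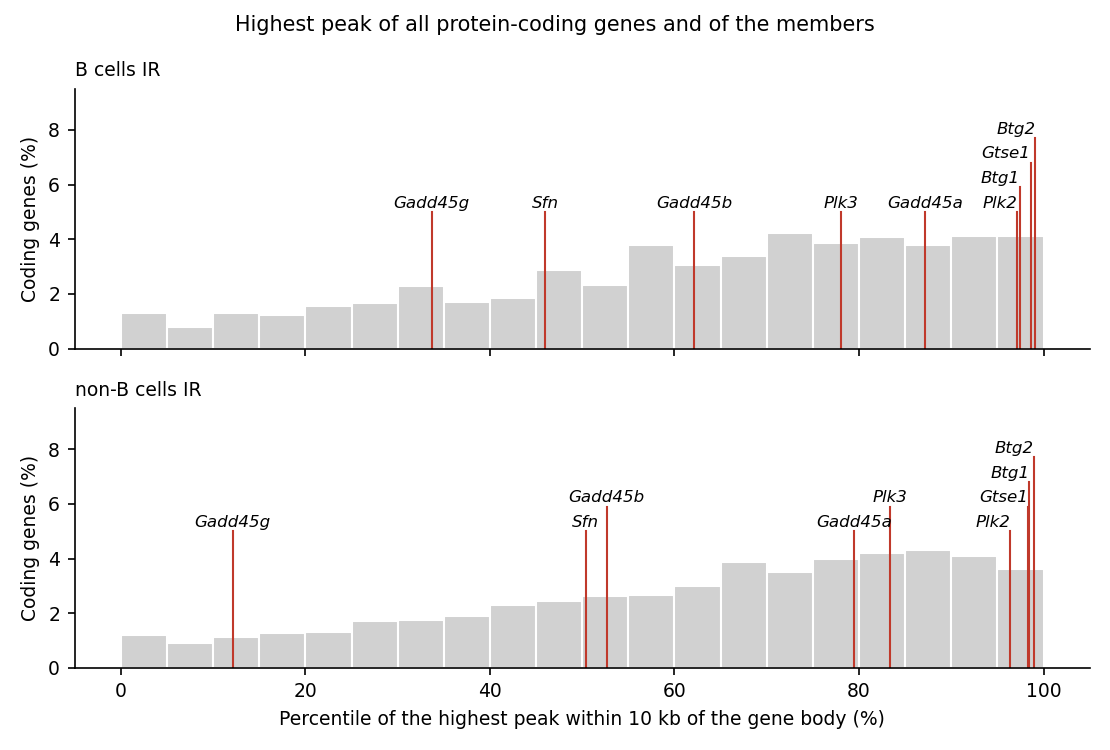
Distribution of the percentile of the highest peak within 10 kb over all protein-coding genes in irradiated B cells (upper) and irradiated non-B cells (lower), as % of coding genes per bin of 5 points, genes without a peak being left out of the bars. Red lines mark the 9 members with a peak, 4 of which fall in the last bin of each panel.

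Btg2 had the highest-ranked peak of the 10 genes in both irradiated lists, and it covered the gene start. The gene lies on chromosome 1, 135971747 to 135975697, minus strand. In irradiated B cells the peak (135975438 to 135977042) had a value of 207.9 and rank 222, a percentile of 99.1. In irradiated non-B cells it (135975485 to 135976783) had a value of 276.77 and rank 225, a percentile of 98.9. The mock peaks were narrow, 85 bp in B cells and 58 bp in non-B cells, and both lay inside the IR peaks. The peak of mock B cells (135975899 to 135975983) had a value of 9.08 and a percentile of 46.6, and the peak of mock non-B cells (135975982 to 135976039) had a value of 9.32 and a percentile of 38.3. The mock peak thus stood near the middle of its list in B cells (rank 705 of 1413) and in the lower part in non-B cells (rank 436 of 712). In both compartments the IR peak stood near the top of its own list. The mismatch-free decamer printed above, at 288 to 297 bp upstream of the start, was covered by the peak of mock non-B cells and lay just outside the peak of mock B cells. Within 300 bp of the midpoint such a decamer was found for 37.3% of peaks in mock B cells and 44.5% in mock non-B cells, against 19.5% and 20.4% of windows moved by 10 kb. After irradiation it was found for 28.7% of B cell peaks and 28.8% of non-B cell peaks, against 19.8% of moved windows for each. Btg2 had 3 weaker peaks in each irradiated list, 1 in the intron and 2 beyond the 3′ end, with percentiles between 17.6 and 59.5 in B cells and between 15.7 and 74.1 in non-B cells. The outermost of them was the member peak closest to the limit of the window, 13621 bp from the start in B cells.

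Btg1, its paralogue, had its highest peak at the other end of the gene. The gene lies on chromosome 10, 96079635 to 96085447, plus strand. In irradiated B cells the highest peak (96083291 to 96084653) had a value of 133.41 and rank 626, a percentile of 97.4. In irradiated non-B cells it (96083452 to 96084748) had a value of 216.49 and rank 331, a percentile of 98.4. Both were centred in the 3′ UTR, 4337 and 4465 bp downstream of the start, and both contained the element printed above. The peak over the Btg1 start was weaker, with a value of 22.89 (percentile 57.6) in B cells and 20.66 (percentile 53.5) in non-B cells. The peak of mock B cells (96084202 to 96084355, value 9.08, percentile 46.6) also lay in the 3′ UTR, 10 bp from the element. It shared its value and rank 705 with the Btg2 mock peak, as did 50 peaks of that list in all. The remaining Btg1 peaks were 3 in irradiated B cells, with values of 5.95 to 28.21, and 2 in irradiated non-B cells, with values of 10.22 and 15.53.

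Gtse1 had the best-matching element and 1 strong peak. The gene lies on chromosome 15, 85690137 to 85707002, plus strand. In irradiated B cells the peak over its start (85689844 to 85690814) had a value of 178.97 and rank 344, a percentile of 98.6. In irradiated non-B cells it (85689849 to 85690872) had a value of 201.22 and rank 361, a percentile of 98.3. The element was 247 bp downstream of the outer start, overlapped a second annotated start of the gene, and was 55 and 24 bp from the midpoints of these peaks. The window held 6 more elements, each with 3 mismatches and 4 of them in introns of the gene, and no peak overlapped any of these. A weaker peak in the window, in irradiated B cells with a value of 16.19, lay 156 bp upstream of the start of the neighbouring gene Trmu.

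Of the Polo-like kinases, Plk2 ranked far above Plk3. Plk2 lies on chromosome 13, 111185252 to 111191052, plus strand, and had 3 peaks in each irradiated list. The highest lay upstream, 2225 bp from the start in irradiated B cells (111182573 to 111183481), with a value of 125.15, rank 706 and a percentile of 97.1. In irradiated non-B cells it lay at 2241 bp (111182461 to 111183561), with a value of 115.84, rank 773 and a percentile of 96.4. It contained the first Plk2 element, 72 and 88 bp from the midpoint. The peak over the start also ranked high, with a value of 113.56 and rank 828 in B cells and a value of 82.35 and rank 1220 in non-B cells, and no unsplit element was within 300 bp of its midpoint. Between them lay the weakest peak, with a value of 10.75 (percentile 16.5) in B cells and 11.66 (percentile 20.7) in non-B cells. It was centred 44 and 25 bp from the second Plk2 element, so elements with the same number of mismatches lay under the highest and the lowest peak of this gene.

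Plk3 lies on chromosome 4, 116801260 to 116806568, minus strand, beside Btbd19 and Tctex1d4. The peak over its own start had a value of 26.45 (rank 8532, percentile 64.3) in irradiated B cells and 22.96 (rank 8622, percentile 58.7) in irradiated non-B cells. All other peaks in its window, 4 in each list, were nearest to the start of one of those neighbours. The highest in B cells had a value of 37.19 (percentile 78.0) and lay in an intron of Btbd19, and the highest in non-B cells had a value of 43.13 (percentile 83.4) and lay in a coding exon of Btbd19. The Plk3 window held no unsplit element.

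By value, the highest peaks of the GADD45 genes descended in rank from Gadd45a to Gadd45b to Gadd45g in both compartments. By width the order differed, and the Gadd45b peak came first (width percentile 98.0 in irradiated B cells and 95.3 in irradiated non-B cells), before those of Gadd45a (74.2 and 75.1) and Gadd45g (59.2 and 73.1). Gadd45a lies on chromosome 6, 66985090 to 66987451, minus strand. Its peak over the start had a value of 38.36 (rank 5105, percentile 79.1) in irradiated B cells and 37.25 (rank 4399, percentile 79.4) in irradiated non-B cells, and the start lies within an intron of E230016M11Rik, so the peak cannot be given to either gene alone. A second peak, 8370 bp downstream of the start and beyond the gene, was higher than the start peak in B cells, with a value of 52.81 (rank 3102, percentile 87.1), and lower in non-B cells, with a value of 22.46 (rank 9004, percentile 57.6). Gadd45b, on chromosome 10, 80392836 to 80394949, plus strand, had its highest peak over the start. That peak had a value of 25.25 (rank 9068, percentile 62.2) in irradiated B cells and 20.38 (rank 10052, percentile 52.7) in irradiated non-B cells, and the other 3 peaks in B cells had values of 7.46 to 12.09. Gadd45g, on chromosome 13, 51942047 to 51943837, plus strand, had a single peak over its start. It had a value of 14.51 (rank 16111, percentile 33.7) in irradiated B cells and 10.08 (rank 18699, percentile 12.1) in irradiated non-B cells. None of the peaks of the 3 genes had an unsplit element within 300 bp of the midpoint, while Gadd45a and Gadd45b had elements elsewhere in their windows.

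Sfn and Rprm had no peak over the start. Sfn lies on chromosome 4, 133156471 to 133158083, minus strand, and had 1 peak in each irradiated list, centred 2285 bp (B cells) and 2358 bp (non-B cells) downstream of the start and past the end of the gene. It (133155567 to 133156030) had a value of 18.36 (rank 12929, percentile 46.0) in B cells. The non-B cells peak (133155509 to 133155942) had a value of 19.53 (rank 10355, percentile 50.4). The Sfn element was inside the non-B cells peak and overlapped the edge of the B cells peak. Rprm lies on chromosome 2, 53936504 to 53937963, minus strand. The peak nearest to it was outside the 10 kb limit, 20.554 kb upstream of the gene in irradiated B cells (53958517 to 53959111) and 20.626 kb in irradiated non-B cells (53958589 to 53959052). It had a value of 71.83 (rank 1888, percentile 92.2) in B cells and 52.93 (rank 2462, percentile 88.3) in non-B cells, and Rprm was the protein-coding gene with the nearest start. Both peaks contained an unsplit element with 1 mismatch, 20868 bp upstream of the start. It was looked for after the positions of the peaks were known, and is shown because Rprm is the member without a peak under the rule.
Rprm, distal, chr2:53958802-53958861, minus strand: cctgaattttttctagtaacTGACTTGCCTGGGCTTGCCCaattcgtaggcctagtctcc

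**Figure D3:**
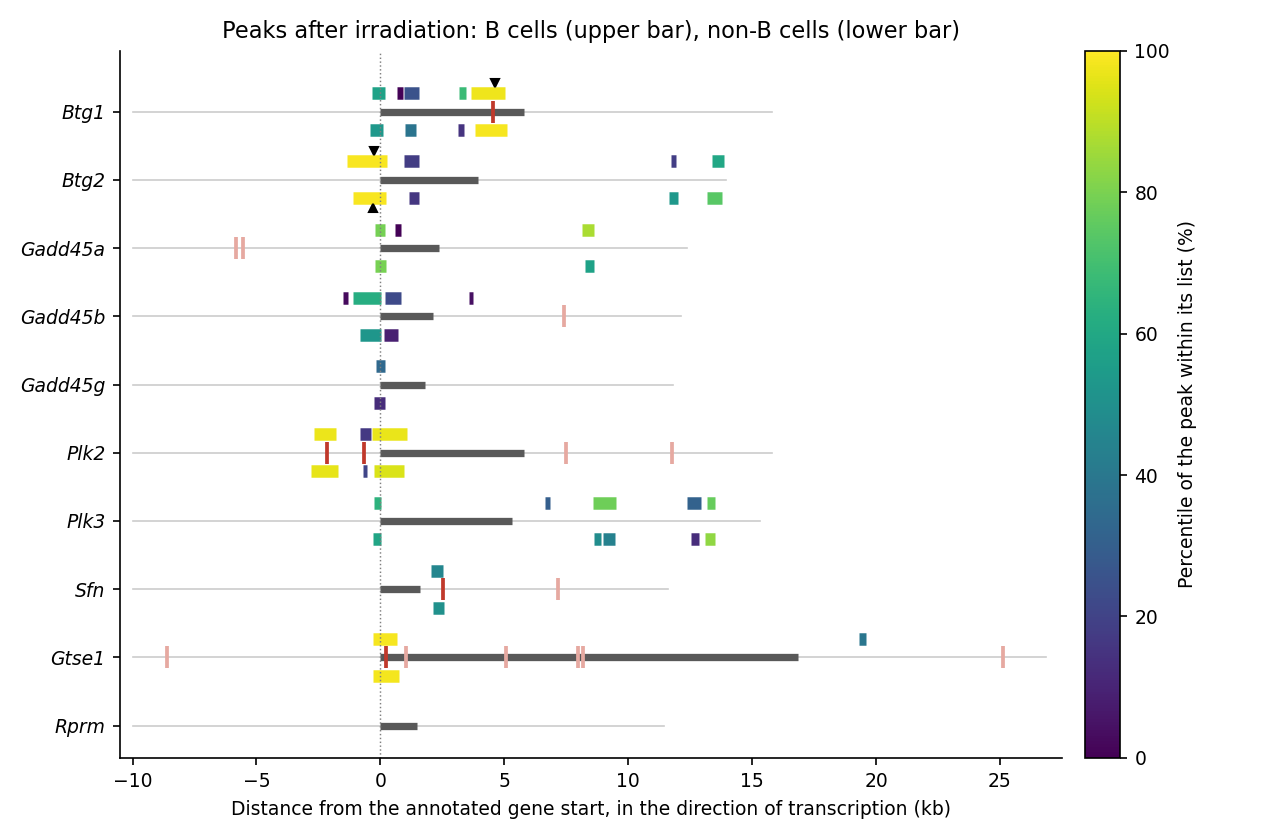
Peaks within the window of each gene by distance from the annotated start in the direction of transcription (kb), drawn to scale, with the gene body as a dark bar. The upper coloured bar of each gene is irradiated B cells and the lower irradiated non-B cells, colour gives the percentile within the list, black triangles are mock peaks (B cells above, non-B cells below), and vertical ticks are unsplit elements (dark red where a list has a peak over them, pale otherwise). The highest-ranked peaks are over the start for Btg2 and Gtse1, upstream for Plk2 and near the 3′ end for Btg1.

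Over the start, then, 8 of the 10 genes had a peak in each irradiated list, all but Sfn and Rprm. The share of all annotated genes with a peak over the start was 15.8% in irradiated B cells and 15.6% in irradiated non-B cells, and among protein-coding genes it was 24.1% and 23.9%. Both irradiated lists thus placed a peak at the start of Btg1, Btg2, the GADD45 genes, Plk2 and Plk3, whatever the rank of that peak. This holds for the chosen genes and not for every gene of their families.

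An unsplit element was within 300 bp of the midpoint of 5 of the 28 member peaks in irradiated B cells and 5 of the 23 in irradiated non-B cells. Over all peaks the share was 15.3% in irradiated B cells (95% Wilson interval 14.9 to 15.8, counting error only) and 15.4% in irradiated non-B cells (14.9 to 15.9). In windows moved by 10 kb it was 3.22% and 3.31%, and in the top 20% of the lists 33.0% and 33.7%. The members therefore carried an element about as often as peaks at large. The genes with an element under a peak were Btg1, Gtse1, Plk2 and Sfn, 3 of which were among the 4 genes in the top 5%, and Btg2, the highest in rank, was the one of those 4 without. Most member peaks, like most peaks of the lists, had no such element nearby. Outside all peaks lay 12 of the 17 elements, a count without a genome-wide share beside it that describes these windows only.

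The compartments were then compared site by site. Overlapping peaks were merged into 28 sites, of which 22 were in both irradiated lists, 6 in irradiated B cells alone and 0 in irradiated non-B cells alone. The 6 sites of irradiated B cells alone were weak, the highest having a value of 16.19, and 4 of them had values under 8, a range in which irradiated non-B cells had no member peak. All 23 member peaks of irradiated non-B cells overlapped a peak of irradiated B cells (100%), and 22 of the 28 of irradiated B cells (78.6%) overlapped a peak of irradiated non-B cells. Over the whole lists these shares were 85.3% and 73.6%. At the 22 shared sites the percentile was higher in B cells at 14 and higher in non-B cells at 8, with Spearman's rho of 0.80 across sites. These sites share their libraries and several share a gene, so the coefficient is descriptive. Near the top of the lists percentiles are bounded and say little about differences, so ranks are given there. The highest peak ranked 222 in irradiated B cells and 225 in irradiated non-B cells for Btg2, 344 and 361 for Gtse1, 706 and 773 for Plk2, and 626 and 331 for Btg1. Further down, percentiles were higher in B cells at the downstream peak of Gadd45a (87.1 against 57.6) and the site 3300 bp into Btg1 (67.7 against 14.9). At the Btg2 site 11833 bp downstream of the start the percentile was lower in B cells (18.1) than in non-B cells (53.5). Without replicates it cannot be said whether these differences exceed the variation between libraries.

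**Figure D4:**
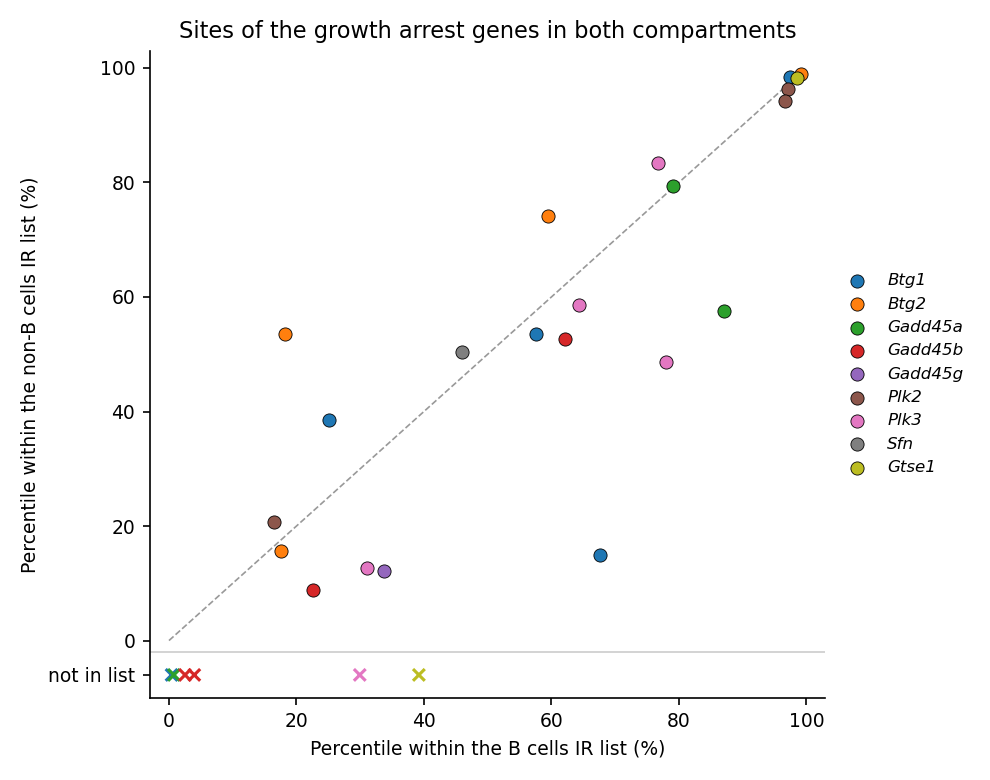
Percentile of each site within the list of irradiated B cells (horizontal axis, %) against that within the list of irradiated non-B cells (vertical axis, %), coloured by gene. Circles are the 22 sites in both lists, crosses in the lowest row are the 6 sites in irradiated B cells alone, and the dashed line marks equal percentiles. Of the 22 circles 14 lie below the line and 8 above it. Points at the upper right corner must lie near the line because percentiles end at 100%.

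A mock peak was found for 2 of the 10 genes in B cells, beside 3.51% of all annotated genes. In non-B cells 1 of the 10 had one, beside 1.74%. Both shares of the members were above those of all genes, but they rest on very few peaks and were not tested. Of the member peaks in the top 5% of irradiated B cells, 2 of 5 overlapped a peak of mock B cells, and over the whole list 29.5% of such peaks did. In irradiated non-B cells 1 of 4 did, against 22.9%. The high peaks of Gtse1 and Plk2 overlapped no mock peak in either compartment. Cdkn1a, for scale, had a mock peak of rank 54 in B cells and rank 50 in non-B cells, and its highest peak had rank 7 in irradiated B cells and rank 1 in irradiated non-B cells. The mock peaks of Btg1 and Btg2 thus stood far lower in their lists than that of Cdkn1a, at ranks 705 of 1413 in B cells and 436 of 712 in non-B cells. The mock lists are much shorter than the irradiated ones and the read depth of the libraries is unknown, so a gene without a mock peak may have been bound below the level of detection.

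Other genes of the same families and pathways were looked at with the same window, 27 in all. They comprised 4 further BTG/TOB genes, 3 Polo-like kinases, 6 genes of 14-3-3 proteins, the Reprimo-like gene, 7 partners or targets of GADD45 and 14-3-3 sigma, both cyclin G genes and 4 CDK inhibitors. A peak was found for 19 of the 27 in irradiated B cells and 18 in irradiated non-B cells, for 4 in mock B cells, 1 in mock non-B cells and 0 in the Trp53-/- list. The shares of all annotated genes, in the same order, were 41.2%, 39.8%, 3.51%, 1.74% and 0.0938%. Their highest peak was in the top 20% of the list for 4 of the 27 in irradiated B cells and 3 in irradiated non-B cells. The share of all annotated genes was 12.2% in each. Among genes with a peak, the median percentile of the highest peak was 53.5 in irradiated B cells and 66.5 in irradiated non-B cells for these genes, 87.1 and 83.4 for the members, and 66.5 and 67.5 for all protein-coding genes. The member medians are single peaks away from the member's start. In B cells it is the Gadd45a peak 8370 bp downstream, whose start peak was at percentile 79.1. In non-B cells it is a peak in the Plk3 window nearest to the start of Btbd19, while the peak over the Plk3 start was at 58.7. The highest of the 27 was Ccng1 (cyclin G1), with a value of 219.76 and rank 191 in irradiated B cells and 437.41 and rank 81 in irradiated non-B cells, and it also had a peak in both mock lists. Btg4 followed with values of 154.24 and 218.82, but its peak lay about 10 kb upstream and was nearest to the start of another gene, 4833427G06Rik. Ccng2 (cyclin G2) had values of 70.31 and 37.89, Mapk14 (the kinase p38 alpha) 48.61 and 55.78, and Ywhaz (14-3-3 zeta) 28.97 and 35.88, each in the order irradiated B cells and irradiated non-B cells. The Polo-like kinase Plk1, which drives mitosis, had a peak in mock B cells with a value of 10.32 (rank 542, percentile 58.3) and one in irradiated B cells with a value of 8.72 (percentile 7.48), and no peak in either list of non-B cells.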

How the data were processed

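Chromatin from pooled spleens was immunoprecipitated with an antibody against p53 and sequenced. Per the study's methods, the authors masked bases of low quality, aligned reads with BWA to mm9 and called peaks with MACS, with 1 list per library. The deposited lists give chromosome, start, end, name and a value that was read from its distribution as −log10 of the p-value (neither read counts nor depth are given). Of the 20 most frequent values, 8 matched that scale in mock B cells and 10 in irradiated B cells. In mock non-B cells 10 did, and in irradiated non-B cells 18. The reading is therefore an assumption, while ranks use only the order of the values. The input library was not used here as a list. Coordinates were converted to count from 1. Genes came from GENCODE vM1, and a peak was assigned where it overlapped the gene body extended by 10 kb by at least 1 bp. Ties in value share the best rank. Elements were searched in the NCBIM37 sequence on both strands, which the palindromic consensus makes equivalent. The 10 genes and the list of 27 further genes were chosen with earlier results of these data known, all 10 are described whatever their values, and of the 27 the 5 with the highest percentile are named (Plk1 was added after its value was seen). The cut-offs at the top 20% and top 5%, peaks over the start, the single decamer and the distal Rprm element were chosen after seeing the data. The overlap, ranking and element steps were tested on simulated lists. Python 3.11.15, numpy 2.4.6, pandas 2.3.3, scipy 1.17.1 and matplotlib 3.10.9 were used.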

Additional observations from a re-analysis of the deposited data

How the results depend on the processing

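Of 73 counts recomputed under other settings, 59 stayed within 1.5 times the value reported and 14 did not. The 59 include the Trp53-/- counts, which were 0 under every setting. They also include the removal of peaks overlapping a Trp53-/- peak, which could change nothing because no such peak lay in a window. The 59 therefore overstate how stable the results are. With equal list lengths (the 712 highest peaks of each list) the genes with a peak fell to 4 in irradiated B cells (Btg1, Btg2, Plk2 and Gtse1), to 3 in irradiated non-B cells (Btg1, Btg2 and Gtse1) and to 0 in mock B cells. That 0 rests on how ties were broken, since the limit fell among the 50 peaks of mock B cells that share the value of both member peaks. With all tied peaks kept, an alternative added after seeing the data, Btg1 and Btg2 stayed and the count was 2, while it was again 4 and 3 in the irradiated lists. In mock B cells the count was 1 without a flank (Btg1), 1 in the promoter window alone (Btg2) and 0 at a minimum value of 20. In mock non-B cells it was 0 without a flank and 0 at that minimum. The peaks with an element in irradiated B cells numbered 8 with 4 mismatches allowed, 3 within 100 bp of the midpoint and 17 with a spacer of up to 15 bases, and in irradiated non-B cells 15 with that spacer. The spacer adds possible pairs by construction: 46.0% of all peaks in irradiated B cells met it, as did 35.7% of moved windows. For a ranking by width the widest peak of each gene was taken, which was not always its peak of highest value. On that footing 10 of 18 percentiles moved by less than 10 points. The others were those of Gadd45b, Gadd45g and Sfn in both lists and of Gadd45a and Plk3 in irradiated B cells. For Plk3 in irradiated non-B cells the widest peak had a width percentile of 79.6, and the peak of highest value 71.5. Ranked by width, Gadd45b came before Gadd45a in both irradiated lists, the reverse of their order by value. With a flank of 50 kb Rprm gained a peak and the count was 10 of 10 in both irradiated lists.

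No paired analysis was possible because there was a single library in each group, which also leaves no replicate to omit. The smallest peaks were 55 and 53 bp wide in the mock lists and 175 and 174 bp in the irradiated lists, and the part of that difference in the counts was not tested. Read as −log10 of the p-value, the lowest values were about 5, below the limit given in the study's methods. In irradiated B cells 4 member peaks had values under 8.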
